A study of Homo sapiens with 4 samples.

Results

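Regulators and targets of lipid metabolism were followed in CD31+ cells that overexpressed HAND1. The group was set by gene symbol, for the question of whether the rise of PPARG in these cells brought its partners and targets along. It holds the receptors PPARG, PPARA and PPARD, their partner RXRA, the coactivator PPARGC1A, the C/EBP factors CEBPA, CEBPB and CEBPD, and the targets FABP4 and CD36, which are 10 of the 58229 genes in the table. Each symbol had 1 row. The cells were derived from H1, an established line of human embryonic stem cells, and were collected at day 8 of a hematopoietic differentiation that began with activin A and BMP4 and went on with VEGF and bFGF. CD31+ cells from H1 without HAND1 overexpression (Control, 2 libraries) were compared with CD31+ cells from H1 with HAND1 overexpression (HAND1_OE, 2 libraries). The scheme of the experiment shows the later days of differentiation with or without DOX, and whether Control and HAND1_OE also differed in DOX is not stated. The vector, its promoter, the clone structure of the lines and whether Control carried an empty vector are not given in the sources used here. The study states independent experiments for its analyses in general, but not for these libraries, so the spread given here may be technical.

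PPARs are nuclear receptors that bind fatty acids and their derivatives, pair with an RXR and switch on genes of lipid uptake, storage and oxidation. PPARG is best known as the master regulator of fat cells, where CEBPB and CEBPD act early and PPARG and CEBPA then maintain each other, and it also acts in macrophages, in endothelium and in the placenta. PPARA drives fatty acid oxidation in liver and muscle, and PPARD is expressed in most tissues. In blood, CEBPA and CEBPB are factors of granulocytes and monocytes.

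The table names no unit, and its values were read as FPKM, that is fragments scaled to transcript length and to the depth of the library, so levels of different genes can be set side by side. HAND1 itself was at 12.1 and 14.3 FPKM in Control, as against 520.5 and 517 in HAND1_OE. PECAM1, which encodes CD31, was at 92.0 to 160.2 FPKM in the 4 libraries, and all 12 endothelial markers listed for the check of the label were expressed. Of the 12, CLDN5 was called lower in HAND1_OE (85.0 and 66.1 to 15.2 and 14.3 FPKM). VWF was called higher (31.3 and 14.6 to 107 and 95.4 FPKM), and the other endothelial markers were not called. Depth relative to Control replicate 1 was 0.985 to 1.19 in the other libraries. Of the blood markers tested, 10 of 11 erythroid, 6 of 7 megakaryocyte and 5 of 7 monocyte and macrophage genes were called lower in HAND1_OE. Over all genes tested, 2.04% were called higher and 2.11% lower. In bulk RNA, fewer cells of a type and less RNA per cell cannot be told apart.

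PPARG was the member with the largest difference, and CEBPB was the other member that was called. A gene was called when its limma p-value, adjusted over all 14622 genes tested, was under 0.05. Of the 8 members that were tested, 1 was called higher and 1 lower, where 4.16% of all genes tested were called, 2.04% higher and 2.11% lower. The members were chosen by the measured rise of PPARG in this same contrast, with the values of the others known. Member values, calls and intervals of the limma fit are therefore a description. No p-value is printed for any member, and nothing is read from the counts of members. With no filter on low values, 0 members were called in limma, and 3 of 10 had an unadjusted p under 0.05. Under that setting, 1458 genes higher and 2352 lower of all 29860 tested had an unadjusted p under 0.05. PPARGC1A and CD36 did not reach 1 FPKM in 2 libraries and were not tested. FABP4 entered the test only through its HAND1_OE values. PPARG also needed its HAND1_OE values to enter, since Control replicate 2 lay under 1 FPKM. PPARG and FABP4 were higher in each HAND1_OE library than in any Control library, RXRA, CEBPB and CD36 were lower, and the other 5 members overlapped. Such separation was common, at 46.3% of all genes tested, 16.2% higher and 30.1% lower.

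**Figure D1:**
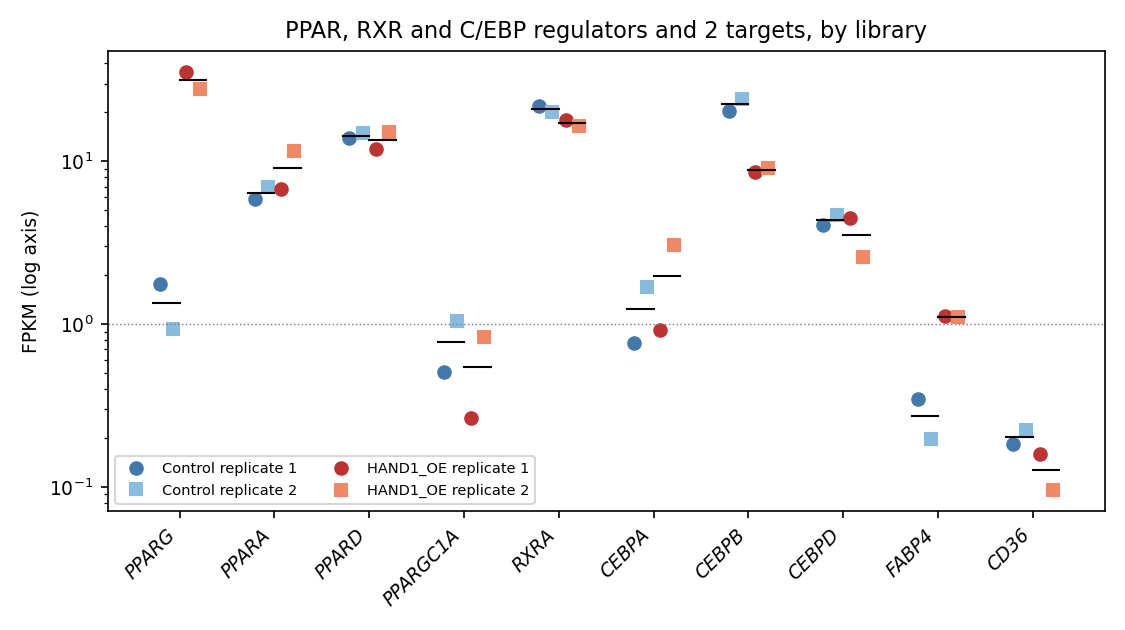
FPKM (log axis) of each of the 10 genes in each library, with circles for replicate 1, squares for replicate 2, blue for Control, red for HAND1_OE and a bar at each group mean; the dotted line marks 1 FPKM. PPARG moves from 1.77 and 0.940 in Control to the top of the plot in HAND1_OE (35.5 and 27.96), CEBPB moves down, and CD36 stays under 1 in all libraries.

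PPARG (ENSG00000132170.19, chromosome 3, 12287368 to 12434356, plus strand) had 1.77 and 0.940 FPKM in replicates 1 and 2 of Control, while replicates 1 and 2 of HAND1_OE had 35.5 and 27.96 FPKM. The groups were far apart, with a mean of 1.36 ± 0.588 FPKM in Control and 31.7 ± 5.35 FPKM in HAND1_OE (SD, n = 2), a ratio of means of 23.4. On the scale of log2(FPKM + 1), which understates the change of low genes, the difference was 3.81 (standard error 0.240), and it ran from 3.55 to 4.07 when each library was left out in turn. It could not be tested with 1 FPKM required in every library, since Control replicate 2 lay under that level. A processed pseudogene of unknown role, AC091492.1, lies inside PPARG on the same strand. Control listed it at 0 throughout, and HAND1_OE at 1.68 and 8.04 FPKM, a difference that did not pass (limma adjusted p = 0.0997), and how reads were divided between it and PPARG is not known.

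PPARA and PPARD, the other receptors of the family, were not called. PPARA (chromosome 22, 46150521 to 46243756) was at 5.87 and 6.98 FPKM in Control, as against 6.74 and 11.5 in HAND1_OE. The groups overlapped, and the upper HAND1_OE value came from replicate 2. The difference of log2(FPKM + 1) was 0.41 with a 95% interval from -0.25 to 1.07. It was 0.064 without HAND1_OE replicate 2 and 0.76 without HAND1_OE replicate 1. PPARD (chromosome 6, 35342558 to 35428191) was at 13.9 and 14.9 FPKM in Control, as against 11.9 and 15.1 in HAND1_OE, a difference of -0.09 with an interval from -0.53 to 0.35. The HAND1_OE libraries of PPARD lay on either side of both Control libraries.

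The make-up of PPAR transcripts followed PPARG. The summed FPKM of the 3 receptors was 21.5 and 22.8 in Control and 54.2 and 54.6 in HAND1_OE. PPARG made up 8.24% and 4.12% of that sum in the Control libraries and 65.6% and 51.2% in the HAND1_OE libraries. PPARD was the most abundant PPAR in both Control libraries, at 64.5% and 65.3% of the sum, and PPARG in both HAND1_OE libraries.

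RXRA, which forms the DNA-binding pair with any of the 3 PPARs, did not rise with PPARG. RXRA (chromosome 9, 134317098 to 134440585) was at 21.7 and 20.03 FPKM in Control, as against 18.01 and 16.5 in HAND1_OE. The HAND1_OE libraries were the lower ones, and the groups did not overlap. The difference of log2(FPKM + 1) was -0.26 with an interval from -0.63 to 0.11, and RXRA was not called. Its relative RXRB was at 10.8 and 8.10 FPKM in Control, as against 8.50 and 10.1 in HAND1_OE, with a limma adjusted p = 0.981. RXRG was under 1 FPKM in all libraries and was not tested. The summed FPKM of the 3 RXR genes ran from 26.5 to 32.8, so that the ratio of summed PPAR to summed RXR transcripts went from 0.656 and 0.805 in the Control libraries to 2.04 and 2.00 in the HAND1_OE libraries.

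**Figure D2:**
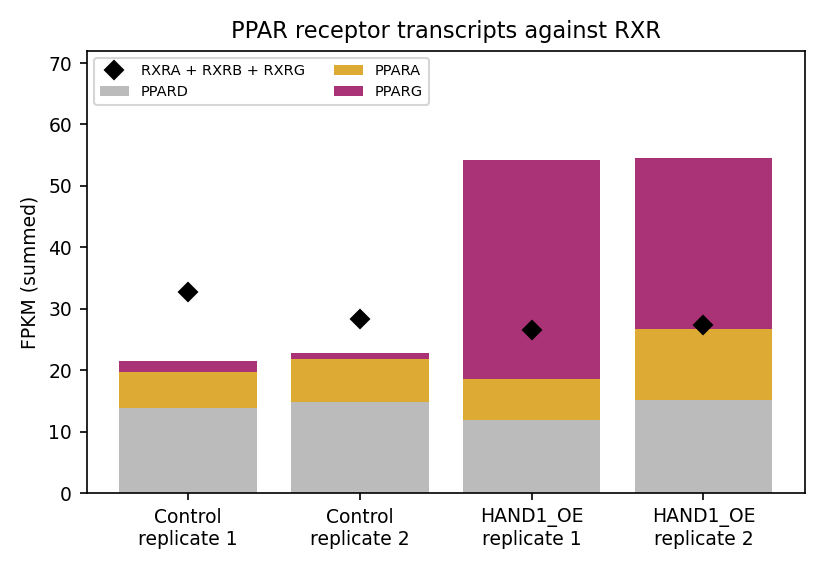
Summed FPKM of PPARD (grey), PPARA (yellow) and PPARG (purple) as stacked bars in each of the 4 libraries, with the summed FPKM of RXRA, RXRB and RXRG as black diamonds. The diamonds (26.5 to 32.8) stand above the bars in Control and below their tops in HAND1_OE, where PPARG supplies 65.6% and 51.2% of the bar.

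The coactivator PPARGC1A, known for mitochondrial and oxidative genes, was low throughout. PPARGC1A (chromosome 4, 23755041 to 23904089) was at 0.505 and 1.04 FPKM in Control, as against 0.266 and 0.832 in HAND1_OE. The groups overlapped, and replicate 2 was the higher library in each. Its relative PPARGC1B was at 0.965 and 1.32 FPKM in Control, as against 0.757 and 0.914 in HAND1_OE and was likewise not tested.

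CEBPB, a basic leucine zipper factor that acts early in fat cell formation and in myeloid cells, moved against PPARG. CEBPB (ENSG00000172216.5, chromosome 20, 50190734 to 50192689, plus strand) was at 20.5 and 24.2 FPKM in Control, as against 8.56 and 9.16 in HAND1_OE. Both HAND1_OE libraries were well below both Control libraries, with means of 22.3 ± 2.59 and 8.86 ± 0.428 FPKM (SD, n = 2). The difference of log2(FPKM + 1) was -1.24 (standard error 0.161). The call was lost when Control replicate 1 (-1.35) or Control replicate 2 (-1.13) was left out, which leaves a single Control library. CEBPB has a single annotated transcript, and the antisense gene CEBPB-AS1, which overlaps it, was at 0.056 to 0.293 FPKM.

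Of the monocyte and macrophage markers tested, 5 of 7 were called lower, as CEBPB was, beside 2.11% of all genes tested. The summed level of the 12 monocyte and macrophage markers was 160.3 and 135 FPKM in Control and 33.3 and 26.3 FPKM in HAND1_OE, and the defining marker CD14 was under 1 FPKM in all libraries. The 15 immediate early genes listed respond to handling of cells. Their summed level was 1817 and 2429 FPKM in Control and 1336 and 1440 FPKM in HAND1_OE. Of the 15, 2 were called lower, JUNB and ZFP36, beside 2.11% of all genes tested. Over the 15 genes, 10 were lower in each HAND1_OE library than in any Control library, 2 (IER3 and KLF6) were higher and 3 overlapped. Of all genes tested, 30.1% were lower in this way and 16.2% higher. The part of either in the level of CEBPB was not tested.

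CEBPA and CEBPD were not called. CEBPA (chromosome 19, 33299934 to 33302564), which in fat cells works together with PPARG, was at 0.768 and 1.69 FPKM in Control, as against 0.918 and 3.05 in HAND1_OE. Replicate 2 was the higher library in both groups, and the groups overlapped. The difference of log2(FPKM + 1) was 0.35, with an interval from -0.69 to 1.39, and it was -0.19 without HAND1_OE replicate 2. Markers of hepatocytes and yolk sac endoderm, where CEBPA and PPARA are also expressed, ran in the same order over the libraries: their summed level was 197 and 363 FPKM in Control and 215 and 678 FPKM in HAND1_OE, with 0 of 8 called in limma and ALB under 1 FPKM throughout. Their part in the CEBPA and PPARA values was not tested. CEBPD, on chromosome 8, was at 4.08 and 4.68 FPKM in Control, as against 4.51 and 2.59 in HAND1_OE, a difference of -0.27 with an interval from -0.91 to 0.36 that was 0.04 without HAND1_OE replicate 2. Among other C/EBP factors, CEBPG was at 7.01 and 8.34 FPKM in Control, as against 7.21 and 8.24 in HAND1_OE (limma adjusted p = 0.987). DDIT3, the stress-induced member of the family, was at 15.6 and 9.23 FPKM in Control, as against 10.3 and 8.94 in HAND1_OE (limma adjusted p = 0.663).

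The targets FABP4 and CD36 stayed low. FABP4, a fatty acid binding protein of fat cells, macrophages and capillary endothelium whose gene is a classic PPARG target, was at 0.346 and 0.198 FPKM in Control, as against 1.12 and 1.10 in HAND1_OE. Both HAND1_OE libraries were higher, by a ratio of means of 4.09, but the level reached was 1.11 ± 0.0156 FPKM (SD, n = 2), against 31.7 FPKM for PPARG. The difference of log2(FPKM + 1) was 0.73 (standard error 0.218), it was 1.73 with a pseudocount of 0.1, and FABP4 was not called under either. CD36 (chromosome 7, 80369575 to 80679277), the fatty acid translocase of fat cells, macrophages, platelets and microvessels, was at 0.183 and 0.223 FPKM in Control, as against 0.159 and 0.096 in HAND1_OE. The HAND1_OE libraries were the lower ones. Markers of platelet precursors moved with it, with a summed level of 155 and 193 FPKM in Control and 17.2 and 11.1 FPKM in HAND1_OE, and their part was not tested. At such levels of FABP4 and CD36 the number of fragments behind a value is unknown, and so is the smallest difference that could be seen.

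**Figure D3:**
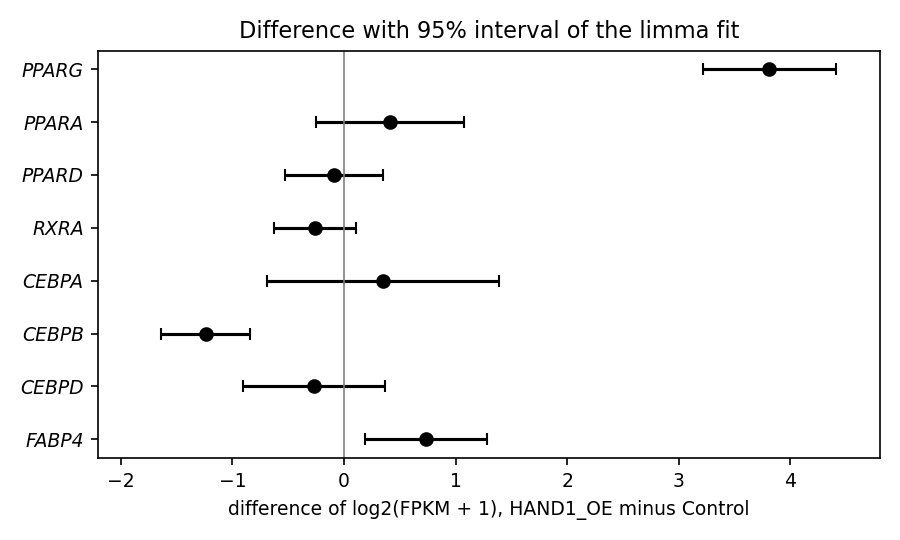
Difference of log2(FPKM + 1), HAND1_OE minus Control, for the 8 genes that were tested, with the 95% interval of the limma fit as bars. PPARG (3.81) and CEBPB (-1.24) stand to either side, FABP4 is at 0.73, and the intervals of PPARA, PPARD, RXRA, CEBPA and CEBPD include 0.

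The order of the levels changed mainly through PPARG and CEBPB. In Control it ran from CEBPB (22.3 FPKM) and RXRA (20.9), which overlapped, through PPARD (14.4), PPARA (6.42) and CEBPD (4.38), each apart from its neighbours, to PPARG (1.36), CEBPA (1.23) and PPARGC1A (0.774), which overlapped in turn. FABP4 (0.272) and CD36 (0.203) came last and overlapped. In HAND1_OE PPARG (31.7) came first, apart from RXRA (17.3) and PPARD (13.5), which were apart from each other and from PPARA (9.13). PPARA and CEBPB (8.86) overlapped. CEBPD (3.55) overlapped with CEBPA (1.99), and CEBPA with FABP4 (1.11). PPARGC1A (0.549) and CD36 (0.128) followed, each apart from the gene before it.

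Sequences upstream of the PPAR receptors and of CEBPB are shown because HAND1 is a basic helix-loop-helix factor, a class that binds the E-box CANNTG, and PPARG and CEBPB are the members that were called. The 250 bases before the RefSeq start nearest to the start of each gene in the table follow, 5′ to 3′ in build GRCh38.p14, with each E-box in capitals. The study reports HAND1 binding at the promoters of FN1, FOXD1 and GATA4. Its text reports no measurement of binding at the genes shown here.
PPARG (chr3:12287118-12287367, plus strand): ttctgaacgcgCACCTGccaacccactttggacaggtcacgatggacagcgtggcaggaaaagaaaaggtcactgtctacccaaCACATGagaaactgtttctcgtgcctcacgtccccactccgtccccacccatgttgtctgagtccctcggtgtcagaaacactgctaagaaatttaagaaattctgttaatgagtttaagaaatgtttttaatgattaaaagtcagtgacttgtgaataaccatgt
PPARD (chr6:35342308-35342557, plus strand): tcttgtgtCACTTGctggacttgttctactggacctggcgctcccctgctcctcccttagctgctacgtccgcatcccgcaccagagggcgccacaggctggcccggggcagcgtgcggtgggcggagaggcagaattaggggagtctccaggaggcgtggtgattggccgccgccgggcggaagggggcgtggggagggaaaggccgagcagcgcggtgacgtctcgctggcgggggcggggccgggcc
PPARA (chr22:46150276-46150525, plus strand): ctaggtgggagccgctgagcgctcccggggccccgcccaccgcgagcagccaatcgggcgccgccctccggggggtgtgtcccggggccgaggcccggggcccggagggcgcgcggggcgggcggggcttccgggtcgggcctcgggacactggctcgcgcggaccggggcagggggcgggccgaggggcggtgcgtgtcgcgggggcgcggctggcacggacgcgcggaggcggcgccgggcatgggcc
CEBPB (chr20:50190580-50190829, plus strand): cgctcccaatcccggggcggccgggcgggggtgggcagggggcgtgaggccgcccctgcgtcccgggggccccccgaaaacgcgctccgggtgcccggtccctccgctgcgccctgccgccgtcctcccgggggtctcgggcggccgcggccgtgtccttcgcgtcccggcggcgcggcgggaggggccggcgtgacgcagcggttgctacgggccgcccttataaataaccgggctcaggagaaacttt

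The window of PPARG, which ends at the start of the gene, held 2 E-boxes, that of PPARD 1, and those of PPARA and CEBPB 0. Of 35097 such windows of all genes, 61.8% held at least 1 on either strand, so the presence of an E-box sets no window apart. The PPARG window also differed in base composition, with 44.8% G or C against 70.8% in PPARD, 84.4% in PPARA and 77.6% in CEBPB. RefSeq gives 6 starts for PPARG, spread over 64049 bases, and the window before each held 1 to 5 E-boxes; FPKM of the whole gene does not show which start was used. The hexamer AGGTCA, the unit of sites bound by PPAR and RXR, occurred in 2 places in the first PPARG window, where 12.1% of windows held it on either strand. A direct repeat of 2 AGGTCA hexamers with 1 base between them and the C/EBP motif TTGCNNAA did not occur in any of the windows printed here, and 0.0171% and 9.05% of all windows held them. Before the last PPARG start, 64049 bases from the first, the window held 1 C/EBP motif, and the other PPARG windows held 0. Of the 10 members 8 had at least 1 window, and CEBPD and FABP4 had none.

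The genes around PPARG were examined next, with a window of 1000 kb on either side of its start. Of 11 other tested genes that start there, 2 were called, where 4.16% of all genes were. Both entered the test only through the group where they were higher. SYN2, a synaptic vesicle protein whose gene starts 283 kb before PPARG on the same strand, was at 0.802 and 0.987 FPKM in Control, as against 6.69 and 7.11 in HAND1_OE (log2 difference 2.06, standard error 0.184, limma adjusted p = 0.00851). TMEM40, 446 kb on the other side of the start, fell from 1.82 and 4.43 FPKM to 0.0508 and 0.0347 FPKM (log2 difference -1.91, standard error 0.347, limma adjusted p = 0.0475). The window was chosen with the PPARG values known.

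The profile of PPARG over the 4 libraries was most like that of 5 other genes, by the Euclidean distance between centred log2(FPKM + 1) values. They were KCNIP4, a potassium channel subunit (distance 0.414), CRABP2, a retinoic acid binding protein (0.425), BARHL1, a homeobox factor (0.482), OBP2A, an odorant binding protein (0.528), and PRRT4 (0.613). CRABP2 was at 59.3 and 35.4 FPKM in Control, as against 768 and 431 in HAND1_OE. KCNIP4, BARHL1, OBP2A and PRRT4 were under 1 FPKM in both Control libraries and entered the test only through HAND1_OE. Differences between such low values are understated on the scale of log2(FPKM + 1). The likeness rests on 4 libraries in 2 groups, and OBP2A has a near-identical copy.

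The wider pathway was then read from 146 other genes of PPAR signalling and lipid metabolism, listed from general knowledge. Of these, 112 were tested, 5 were called higher and 6 lower, which is 4.46% and 5.36% of those tested beside 2.04% and 2.11% of all genes. Their median log2 difference was -0.04, beside -0.08 over all genes tested. Of the 112, 11 (9.82%) were called, beside 4.16% of all genes tested, and 101 were not. A further 34 genes were too low to test.

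Among cofactors, CITED2, a coactivator that binds CBP and p300, was the 1 gene called of 16 coactivators and corepressors tested. It was at 92.5 and 126 FPKM in Control, as against 46.7 and 46.99 in HAND1_OE (log2 difference -1.19, standard error 0.189, limma adjusted p = 0.0347), and it was not called after quantile normalization (limma adjusted p = 0.0507). The call was also lost without Control replicate 2 (-0.97), HAND1_OE replicate 1 (-1.18) or HAND1_OE replicate 2 (-1.19). Of the RXR and LXR partners (3 tested) and of the other C/EBP genes (3 tested), 0 were called in limma.

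Of 17 regulators of fat cell formation tested, 3 rose and 1 fell. LMNA, a nuclear lamin, rose from 57.9 and 64.5 FPKM to 168 and 131 FPKM (log2 difference 1.27, limma adjusted p = 0.0257). EBF1, a factor of B cells and fat cells, rose from 0.793 and 0.650 FPKM to 3.57 and 2.65 FPKM (1.25, limma adjusted p = 0.0425), and entered the test only through HAND1_OE. NR3C1, the glucocorticoid receptor, was the other that rose, by 0.92, and is named after its value was seen, to complete the count. Its call was lost when any 1 library was left out. STAT5A, a signal transducer of cytokine receptors, fell from 30.5 and 26.96 FPKM to 11.8 and 11.2 FPKM (log2 difference -1.25, limma adjusted p = 0.0176). LMNA (1.19 and 1.34), STAT5A (-1.16 and -1.33) and EBF1 (1.31 and 1.19) were not called when Control replicate 1 or 2 was left out, nor was EBF1 without HAND1_OE replicate 1 (1.08). Of 9 mesenchyme and stroma markers tested, 3 were called higher (PDGFRB, LUM and POSTN) and 0 lower in limma, beside 2.04% and 2.11% of all genes. Their median log2 difference was 1.16. Over the 11 genes listed, 6 were higher in each HAND1_OE library than in any Control library, and 2 were lower. Such separation held for 16.2% and 30.1% of all genes tested. The lower ones were COL1A1 (89.9 and 79.7 to 70.0 and 74.0 FPKM) and COL1A2 (154 and 141 to 68.6 and 101 FPKM). The summed level over the 11 genes was 816 and 739 FPKM in Control and 1120 and 1136 FPKM for HAND1_OE. In HAND1_OE the largest values in that sum were those of THY1 and COL3A1, and neither was called. THY1 went from 378 and 383 to 553 and 628 FPKM, and COL3A1 from 160 and 97.9 to 325 and 241 FPKM. The part of the mesenchyme and stroma markers in PPARG and in the regulators above was not tested.

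Of 14 genes of fatty acid uptake, binding and activation tested, 1 rose and 2 fell. SLC27A3, of the fatty acid transport protein family, rose from 62.8 and 44.9 FPKM to 396 and 199 FPKM (log2 difference 2.38, standard error 0.356, limma adjusted p = 0.03003). SLC27A2, of the same family, fell from 3.95 and 4.86 FPKM to 0.394 and 0.642 FPKM (-1.83, limma adjusted p = 0.01603), and entered the test only through Control. CAV1, the main protein of caveolae, fell from 3.98 and 5.15 FPKM to 0.952 and 1.30 FPKM (-1.38, limma adjusted p = 0.0326). Calls were lost without Control replicate 2 for SLC27A3 (2.14), SLC27A2 (-1.71) and CAV1 (-1.23), and for CAV1 also without Control replicate 1 (-1.54) or HAND1_OE replicate 1 (-1.27). Lipoprotein lipase, LPL, a PPARG target that frees fatty acids from triglycerides in the vessel, was at 57.2 and 157 FPKM in Control, as against 41.3 and 49.7 in HAND1_OE and did not pass (limma adjusted p = 0.328). Without Control replicate 1 its difference of -1.05 became -1.78 and passed (limma adjusted p = 0.0235), while without Control replicate 2 it became -0.33 (limma adjusted p = 0.69).

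Fatty acid oxidation, the main output of PPARA and PPARD, was mostly not called. Of 20 genes tested only the mitochondrial carrier UCP2 was called, from 12.2 and 15.3 FPKM to 2.69 and 2.47 FPKM (log2 difference -2.04, limma adjusted p = 0.00851), a call kept without any 1 library (-2.19 to -1.88), and the other 19 had differences between -0.38 and 0.40. CPT1A, which admits fatty acids to mitochondria, was at 0.414 and 0.496 FPKM in Control, as against 1.01 and 0.084 in HAND1_OE. PDK4, a kinase that shifts fuel use towards fat, was at 0.849 and 1.18 FPKM in Control, as against 0.732 and 0.914 in HAND1_OE, and neither was tested.

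Of 16 genes of lipid storage and triglyceride synthesis tested, 1 was called. MGLL, the monoglyceride lipase, rose from 0.219 and 0.555 FPKM to 5.16 and 4.93 FPKM (log2 difference 2.13, standard error 0.216, limma adjusted p = 0.0104), and stayed called without any 1 library (1.96 to 2.31). It entered the test only through HAND1_OE. PLIN2, the lipid droplet coat protein of most cells and a PPAR target, was at 39.6 and 34.9 FPKM in Control, as against 52.5 and 34.99 in HAND1_OE (limma adjusted p = 0.747). Of 10 genes of fatty acid synthesis and desaturation tested, 0 were called in limma, and their log2 differences ran from -0.68 to 0.96. ME1, of that list, was called higher after quantile normalization and with the replicate number as a block.

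Targets of fat cells were close to absent. ADIPOQ, which encodes adiponectin, was listed at 0 in all libraries, and PLIN1, the droplet coat protein of fat cells, was at 0.131 to 0.210 FPKM. Of 7 fat cell markers, 6 were too low to test. The summed level of all 7 was 2.54 and 2.60 FPKM in Control and 1.91 and 1.52 FPKM in HAND1_OE. Most of that sum was LIPE, the 1 marker tested. LIPE was at 1.77 and 2.15 FPKM in Control, as against 1.53 and 1.22 in HAND1_OE (limma adjusted p = 0.527). ANGPTL4, a secreted lipase inhibitor and target of all PPARs, was at 32.5 and 25.9 FPKM in Control, as against 38.7 and 32.97 in HAND1_OE (log2 difference 0.29, limma adjusted p = 0.504). Of 13 secreted and other targets tested, CD300LG, a receptor of capillary endothelium, was the 1 called, and it fell from 13.4 and 12.2 FPKM to 2.28 and 4.49 FPKM (log2 difference -1.70, limma adjusted p = 0.0355). Without Control replicate 1 (-1.64) or 2 (-1.76) it was not called. PPARG is also a gene of the placenta, and of 12 trophoblast markers 10 were too low to test, with CGB5 listed at 0 in all libraries. Of the 2 tested, TFAP2A rose from 3.36 and 3.18 FPKM to 9.66 and 7.25 FPKM (log2 difference 1.13, limma adjusted p = 0.0419), and GATA3 was at 26.1 to 30.6 FPKM (limma adjusted p = 0.967). The summed level of the list was 33.6 and 32.1 FPKM in Control and 36.9 and 39.4 FPKM for HAND1_OE, and its part in the level of PPARG was not tested.

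**Figure D4:**
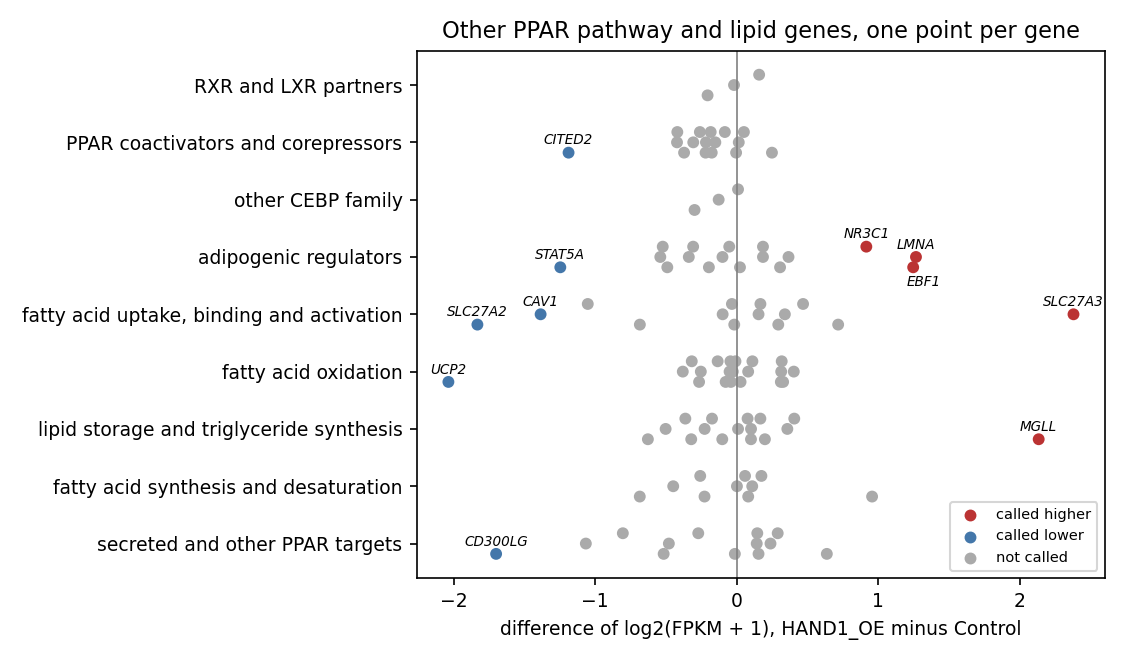
Difference of log2(FPKM + 1), HAND1_OE minus Control, for each of the 112 tested pathway genes in 9 lists; red points were called higher, blue lower and grey not called. The 5 called higher and 6 called lower are named, and the grey points of each list gather around 0.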

How the data were processed

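Sample titles gave the groups. The authors deposited 1 table of values per gene and library. It names no unit, and the deposited values were read as FPKM, scaled by the authors to transcript length and library depth, since the study shows expression in that unit and they are not whole numbers. Their processing notes name BWA, Bowtie, RSEM and the build hg19, with no versions. The coordinates match GRCh38 in 56554 of 58365 rows, and starts are given counted from 1. After 45 rows for Y copies and 91 further rows that shared a gene ID were left out, 58229 genes remained. Gene types came from GENCODE.

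The 14622 genes that reached 1 FPKM in 2 or more libraries were fitted on log2(FPKM + 1) by limma 3.58.1, with its trend option, under R 4.3.3. Two-sided p-values had a Benjamini-Hochberg adjustment across these genes. An exact permutation test of 2 against 2 libraries cannot go below p = 0.333. In 20 simulated data sets of 14622 genes, 84.8% of 200 genes changed by 2 on the log2 scale were recovered, and 5.16% of calls were false.

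Since FPKM holds no counts, relative depth was read from the most common ratio of low values in single-exon genes, and no counting interval can be given. Members and lists were chosen with earlier results of these data known. Named genes were the members, HAND1, up to 3 called genes of each list with the largest change whose higher group averaged 1 FPKM or more, 12 relatives and targets whether called or not, and the 5 profiles nearest to PPARG. Others, such as the neighbours of PPARG, were named after their values were seen. Alternatives were another pseudocount, 2 other filters, 2 scalings, no trend, each library left out, an added fold change of 2 and a block for the replicate number.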

Additional observations from a re-analysis of the deposited data

How the results depend on the processing

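With every gene above 0 in any library tested (29860 genes), 0 members, 0 pathway genes and 0 genes in all were called higher or lower in limma, while at an unadjusted p under 0.05 these were 3 of 10 members, 25 of 143 pathway genes, and 1458 genes higher and 2352 lower. With 1 FPKM required in every library, PPARG was not tested, so 0 members were higher, and 3 pathway genes were higher. After quantile normalization, ME1 and CPT1C were added to the pathway calls and CITED2 was lost. With the replicate number as a block, 6 pathway genes were higher, with ME1 added, and 11 were lower. In all, 597 genes were higher and 712 lower with that block. The deviations of same-numbered libraries correlated at 0.383 across genes, but the labels do not say that a number marks a shared culture, and the block changed no member's call. RXRB reversed to 0.076 after quantile normalization and 0.066 after median-ratio scaling. With each library left out, where a lone library is assumed to vary like the others, members called lower ran from 0 to 1, pathway genes called higher from 1 to 4 and lower from 1 to 5, and all genes called higher from 134 to 266 and lower from 137 to 309. The log2 difference then ran from -0.25 to 0.072 for PPARD, -0.19 to 0.89 for CEBPA, -0.58 to 0.038 for CEBPD, -0.21 to 0.17 for RXRB, -0.10 to 0.12 for CEBPG, -0.65 to 0.052 for DDIT3 and -0.086 to 0.49 for PLIN2, and none of these passed. The cause of these changes was not tested. Depth in counts is unknown, which limits CD36, FABP4 and PPARGC1A most.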
